A study of Mus musculus with 4 samples.

Results

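The respiratory chain and the ATP synthase were followed in tumor-infiltrating cells through the genes of their subunits. Members were taken by symbol: genes whose names begin with Ndufa, Ndufb, Ndufc, Ndufs, Ndufv, Uqcr, Cox4i, Cox5, Cox6, Cox7, Cox8 or Atp5, together with the mitochondrially encoded genes, whose names begin with mt-. Of 31053 genes in the files, 102 matched these names, and 95 of them had at least 100 unique molecular identifiers (UMIs, each marking 1 captured transcript) over the 4 libraries. These 95 comprised 82 nuclear and 13 mt- genes. The 7 that stayed below the limit were Cox4i2 with 37 UMIs, Cox6b2 with 74, Ndufa4l2 with 7, and Cox7b2, Cox8b, Cox8c and a second gene identifier for Atp5o, all with 0.

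The electron transport chain passes electrons from NADH and succinate to oxygen and pumps protons across the inner mitochondrial membrane, and the ATP synthase uses that gradient to make ATP. Complexes I (NADH dehydrogenase), III (cytochrome bc1), IV (cytochrome c oxidase) and V (ATP synthase) are mosaics: most subunits are encoded in the nucleus and imported, and a core set is encoded in mitochondrial DNA. In T cells, naive and memory cells rely largely on oxidative metabolism, while activated cells enlarge both glycolysis and mitochondrial mass.

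Myc-CaP cells, a mouse prostate cancer line driven by a Myc transgene, had been grown under the skin of male FVB mice, and cells positive for CD8 and CD3 were sorted from the tumors for single-cell RNA sequencing of transcript 3′ ends. Ctrl mice carried the same tumors and are labelled with neither agent, aPD-L1 mice received 10 mg/kg of an antibody against the immune checkpoint ligand PD-L1, Oxali mice received the platinum drug oxaliplatin at 6 mg/kg, and Combo mice received both at those doses, all weekly by intraperitoneal injection for 3 to 4 weeks. Each group was 1 library, and neither the number of mice behind a library nor their age is given in the sources used here. A treatment and its library therefore cannot be told apart, and comparisons between libraries carry intervals that cover counting error only, with no p-value.

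The libraries held 1116 to 1642 barcodes and 5443036 to 6340015 UMIs. After clustering without any member gene, 3549 of 4948 kept cells were T-like, with 744 in Ctrl and 1102, 909 and 794 in aPD-L1, Oxali and Combo, and all 10 T markers were detected in each library. The sort had also let through 773 macrophage and monocyte-like, 222 dendritic-like, 159 NK-like and 80 CD4 T-like cells, and 2 barcodes occurred in more than 1 library. Cluster 14, counted as T-like, scored highest on the gamma-delta T markers among lists other than T (mean log2 fold 3.45). It did not take that name because fewer than 3 of them were each seen in 10% of its cells. Of its 118 kept cells, 62 were in Combo and 10 in Ctrl. The Ctrl library stood apart: 399 of the 584 T-like cells in a cluster led by the heat shock gene Hspa1a and immediate early genes such as Fos came from it, and Hspa1a stood at 2233 CPM (UMIs per 1000000 UMIs of the cells summed) in its T-like cells against 172 to 442 CPM in the others. Barcodes with over 10% mitochondrial UMIs were left out, a filter that acts on the mt- members themselves.

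The mt- members were the part of the module that differed most between libraries. In T-like cells their summed level was 41776 CPM in Ctrl and 30500, 34222 and 27255 in aPD-L1, Oxali and Combo. Ctrl was highest and Combo lowest, and each 95% Poisson interval lay within 242 CPM of its value. The summed level of the 82 nuclear members ran the other way, at 18593, 19717, 19637 and 21761 CPM in the same order. There were thus 2.25 mt- UMIs per nuclear member UMI in Ctrl, against 1.55 in aPD-L1 and 1.74 in Oxali, and Combo was lowest, with a 95% interval of 1.24 to 1.26.

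Against Ctrl, the mt- sum was 0.730-fold in aPD-L1 (95% interval 0.724 to 0.736), 0.819-fold in Oxali (0.812 to 0.826) and 0.652-fold in Combo (0.647 to 0.658). Without the 10% ceiling the ratios were 0.740, 0.810 and 0.685. The Combo library was also below both single-agent libraries, at 0.894 of aPD-L1 (0.886 to 0.901) and 0.796 of Oxali (0.789 to 0.803). The nuclear sum was 1.06-fold in aPD-L1 (1.05 to 1.07), 1.06-fold in Oxali (1.04 to 1.07) and 1.17-fold in Combo (1.16 to 1.18). The nuclear direction turned for the single agents when the heat shock cluster was left out, to 0.970 in aPD-L1 and 0.966 in Oxali, and Combo came to 1.07. Levels are shares of all UMIs, of which ribosomal protein genes took 33.2% in Ctrl and 29.4% in Combo. With mt- and ribosomal protein UMIs left out of the total, Combo stood at 1.08 of Ctrl for the nuclear and 0.602 for the mt- sum. The summed level of the 10 macrophage markers in T-like cells was 655 CPM in Ctrl and 370 to 387 CPM in the other libraries. All 10 were detected in each library. Without barcodes holding 3 or more of those UMIs, the mt- ratio was 0.738 in aPD-L1 and 0.667 in Combo.

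**Figure D1:**
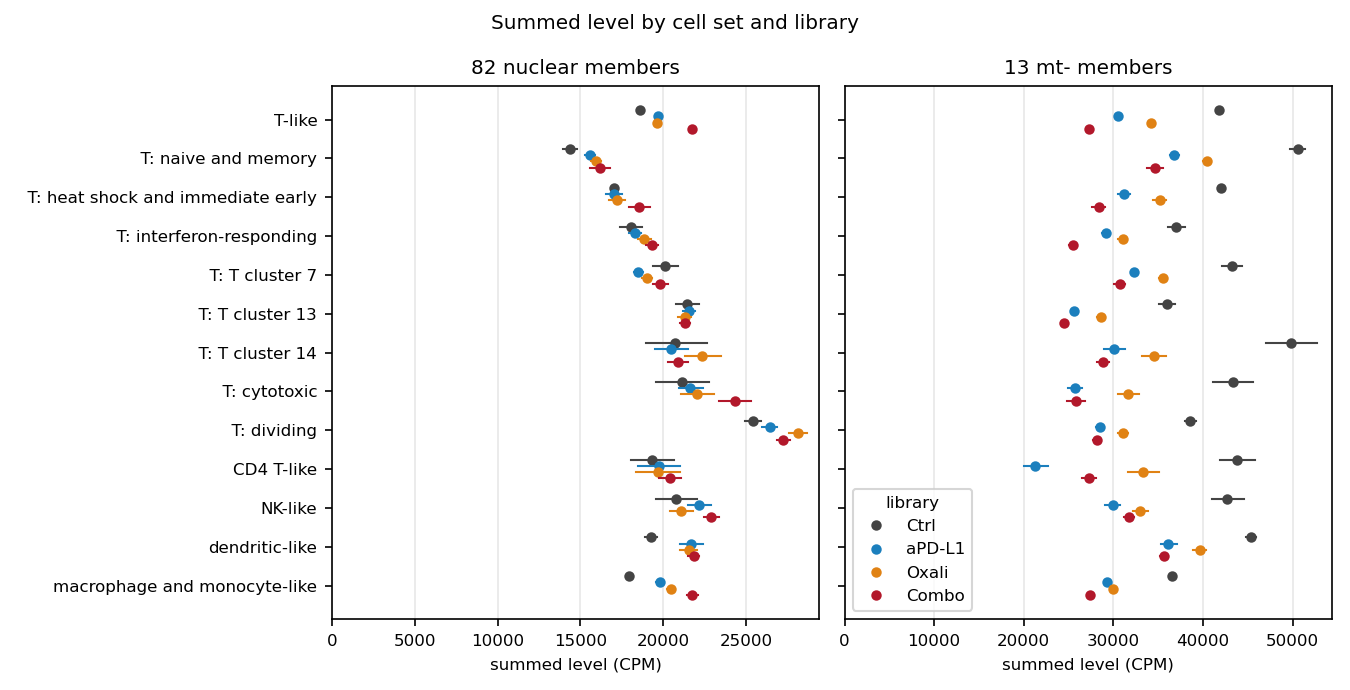
Summed level in CPM of the 82 nuclear members (left) and the 13 mt- members (right) in T-like cells, their 8 clusters and the 4 other named classes, by library; unnamed clusters are not drawn. Points are libraries, lines are 95% Poisson intervals that cover counting error only, and in the right panel the Ctrl point lies to the right of the other 3 in every row drawn.

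The difference in mt- members was not carried by 1 T-cell state. Over the 8 T-like clusters, the mt- ratio to Ctrl was below 1 in 8 of 8 for each treatment, from 0.593 to 0.789 in aPD-L1, 0.693 to 0.838 in Oxali and 0.578 to 0.730 in Combo. Without the 10% ceiling the ranges were 0.564 to 0.853, 0.693 to 0.859 and 0.567 to 0.823, again below 1 in each cluster. In the naive and memory cluster, led by Lef1 and Ccr7, the mt- sum was 50582 CPM in Ctrl and 36813, 40391 and 34665 in aPD-L1, Oxali and Combo. In the heat shock cluster itself it was 41951, 31212, 35156 and 28341 CPM. Ctrl was thus highest both inside and outside the cluster that it dominates. The same order of Ctrl over Combo was seen in the other named classes: the Combo to Ctrl ratio was 0.751 (0.740 to 0.763) in macrophage and monocyte-like cells, 0.787 (0.773 to 0.801) in dendritic-like cells, 0.744 (0.711 to 0.779) in NK-like cells and 0.621 (0.589 to 0.656) in CD4 T-like cells. Without the ceiling these were 0.806, 0.796, 0.683 and 0.684. These classes are not free of T-cell RNA. Their T markers summed to 5737, 3411, 7532 and 10476 CPM in the same order, against 9508 in T-like cells. The nuclear ratio of Combo to Ctrl ranged from 0.986 to 1.15 over the T-like clusters and was below 1 in 2 of 8.

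By complex, the mt- sum of the ATP synthase stood lowest relative to Ctrl. Nearly all of it was mt-Atp6, with 24524 UMIs in Ctrl against 113 for mt-Atp8, whose Combo ratio was 0.756 (0.572 to 0.999). In Combo relative to Ctrl, the mt- ratio was 0.608 (0.596 to 0.621) for complex I, 0.762 (0.740 to 0.785) for complex III, 0.683 (0.675 to 0.692) for complex IV and 0.573 (0.562 to 0.585) for complex V. Without the 10% ceiling these were 0.641, 0.793, 0.715 and 0.606. The nuclear ratio was nearly level over the same complexes, at 1.19, 1.17, 1.19 and 1.18. In aPD-L1 the mt- order was the same, with 0.705, 0.815, 0.749 and 0.673, against nuclear ratios of 1.08, 1.02, 1.04 and 1.09. In Oxali the mt- ratios were 0.798, 0.911, 0.842 and 0.748, against nuclear ratios of 1.07, 1.08, 1.05 and 1.06. Complex III, whose only mt- member is cytochrome b, showed the smallest mt- difference in all 3 comparisons.

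Single mt- members differed in how far they were below Ctrl. A gene was called when its CPM ratio reached 1.5-fold in either direction and its interval excluded 1, among genes with at least 100 UMIs in the T-like cells of the pair. Of 12 mt- members tested, 2 were called lower in aPD-L1, where 3.94% of all genes were called lower and 1.95% higher. In Oxali 1 of 12 was called lower, beside 4.61% of all genes lower and 1.83% higher. In Combo 6 of 12 were called lower, beside 4.11% of all genes lower and 6.67% higher. No mt- member was called higher in any of the 3. Without the 10% ceiling, 1 member was called lower in each single-agent library and 5 in Combo. Without the heat shock cluster, 1 was called lower in aPD-L1 and mt-Nd4l was called higher in Oxali.

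The gene for complex I subunit ND3, mt-Nd3 (chrM:9459-9806, plus strand, GRCm38), had the lowest mt- ratio to Ctrl in all 3 libraries and was called in each, also without the ceiling and without the heat shock cluster. It stood at 229 CPM in Ctrl and at 98.6, 123 and 86.6 in aPD-L1, Oxali and Combo. These are ratios of 0.430 (0.378 to 0.489), 0.538 (0.474 to 0.610) and 0.378 (0.327 to 0.435). The complex I core subunit gene mt-Nd2 followed, at 2462, 1624, 1786 and 1302 CPM, with a Combo ratio of 0.529 (0.509 to 0.550). It was called in aPD-L1 at 0.660 and in Combo, although the aPD-L1 call was lost without the ceiling (interval 0.648 to 0.693) and without the heat shock cluster (0.643 to 0.702). The gene for the proton-channel subunit a of the ATP synthase, mt-Atp6, stood at 8845, 5949, 6608 and 5064 CPM, and its Combo ratio was 0.573 (0.561 to 0.584). In Combo, mt-Nd1, mt-Nd4 and mt-Co2 were also called, at 0.628, 0.649 and 0.618, and mt-Nd4 was not called without the ceiling (0.688).

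At the other end, mt-Nd4l, a small complex I subunit gene, had the highest ratio to Ctrl of the 12 tested mt- members in all 3 libraries. It was at 88.7 CPM in Ctrl and at 94.5, 118 and 78.6 in aPD-L1, Oxali and Combo. Its ratio was 1.33 (1.13 to 1.56) in Oxali, with an interval of 1.20 to 1.90 without the heat shock cluster, and its intervals in aPD-L1 (0.903 to 1.26) and Combo (0.741 to 1.06) held 1. For mt-Nd5 the ratios of aPD-L1, Oxali and Combo were 0.867, 1.07 and 0.826. The largest contributors by UMIs were mt-Co3, a core subunit of complex IV, with 9291, 7109, 7911 and 6272 CPM, and mt-Atp6. For cytochrome b, mt-Cytb, the values were 3425, 2793, 3121 and 2611 CPM. The 13th member, mt-Nd6, was too shallow to be tested, at 10.6 to 15.9 CPM.

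**Figure D2:**
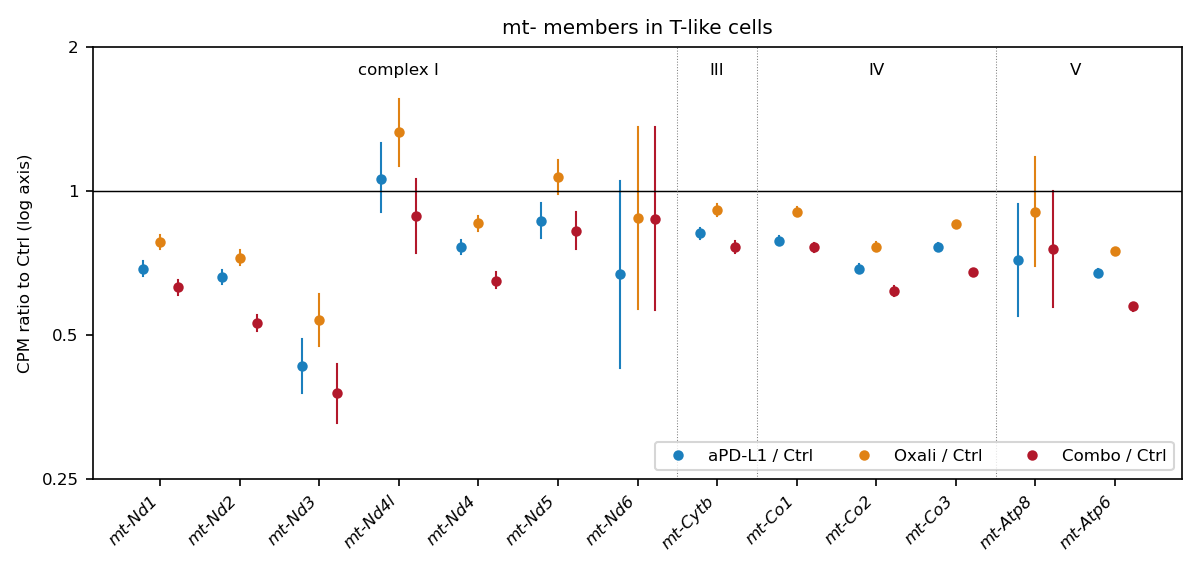
CPM ratio to Ctrl in T-like cells (log axis) of the 13 mt- members, grouped by complex, for aPD-L1, Oxali and Combo. Points are ratios of summed UMIs and lines 95% exact binomial intervals; mt-Nd3 is lowest at 0.378 to 0.538 and mt-Nd4l highest at 0.886 to 1.33.

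Some mt- values cannot be separated cleanly by gene, because the annotated genes overlap at their ends. The last 60 bases of mt-Atp8 (chrM:7910-7969) and of mt-Nd4l (chrM:10114-10173), from the GENCODE M21 transcripts of GRCm38, are shown with the bases shared with the next gene in capitals.
mt-Atp8: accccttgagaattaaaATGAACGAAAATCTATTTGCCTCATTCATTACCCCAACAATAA
mt-Nd4l: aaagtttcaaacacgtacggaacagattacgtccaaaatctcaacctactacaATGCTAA
The end of mt-Atp8 shares 43 bases with mt-Atp6 and that of mt-Nd4l shares 7 with mt-Nd4, while mt-Nd5 and mt-Nd6 overlap by 14 bases on opposite strands. In mouse mitochondria, as in other mammals, ATP8 with ATP6 and ND4L with ND4 are carried on shared messages. The levels of mt-Atp8 (40.8, 29.2, 36.9 and 30.8 CPM) and mt-Nd4l are therefore uncertain, and how the reads were assigned was not given in the sources used here. The level of mt-Nd6 is uncertain because it rests on 41 to 46 UMIs per library.

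Nuclear members were shifted little and mostly upward. Of 75 tested in aPD-L1 and 75 in Oxali, 0 were called at 1.5-fold, and of 76 tested in Combo 1 was called higher and 0 lower. Over all genes the shares called higher and lower at this limit were 1.95% and 3.94% in aPD-L1, with 1.83% and 4.61% in Oxali and with 6.67% and 4.11% in Combo. Read by the interval alone, 23 of 75 lay wholly above 1 and 3 below in aPD-L1, against 14.3% and 9.87% of all genes. In Oxali 22 of 75 lay above and 3 below, against 11.4% and 12.1%. In Combo 54 of 76 lay above and 4 below, against 26.8% and 9.34%. Intervals narrow with the number of UMIs, so these shares depend on how abundant the genes are. The median log2 ratio of the nuclear members was 0.09 in both single-agent libraries and 0.27 in Combo, beside medians over all tested genes of 0.05, 0.01 and 0.15. Without the heat shock cluster the counts above 1 came to 3 of 74, 5 of 74 and 25 of 74, with medians of -0.02, -0.04 and 0.14. The shares and medians over all genes given above are for all T-like cells. They are not given for this setting, so these counts cannot be set against them.

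The nuclear member with the highest ratio in Combo was Ndufa3, an accessory subunit gene of complex I (chr7:3617373-3620327, plus strand, GRCm38). It stood at 64.2 CPM in Ctrl and at 75.6, 94.6 and 99.3 in aPD-L1, Oxali and Combo, and its ratio was 1.47 (1.22 to 1.78) in Oxali and 1.55 (1.28 to 1.87) in Combo. Without the heat shock cluster its Combo ratio was 1.41 (1.11 to 1.81), below the limit, and Ndufaf3, a complex I assembly factor gene, was called in its place at 1.53 (1.04 to 2.31). Ndufa11, an accessory subunit gene of the membrane arm of complex I, was at 129, 166, 174 and 192 CPM. It was among the 3 highest in all comparisons, at 1.29, 1.35 and 1.49 (1.31 to 1.70). Ndufa8 stood at 107, 130, 111 and 160 CPM, with a Combo ratio of 1.49 (1.29 to 1.72). Atp5o, which encodes the stalk subunit OSCP of the ATP synthase, was at 259, 329, 292 and 350 CPM and was among the 3 highest in aPD-L1, at 1.27 (1.16 to 1.40). Its Oxali ratio of 1.13 turned to 0.992 (0.878 to 1.12) without the heat shock cluster. Ndufs1, the largest subunit of complex I, was at 25.6, 32.9, 34.5 and 33.6 CPM, and its intervals held 1 in all 3 comparisons. Without the heat shock cluster it was called higher in Oxali, at 1.57 (1.02 to 2.49).

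The lowest nuclear members formed a short list that recurred when all T-like cells were summed. Cox7a2l, a factor that joins complexes III and IV into supercomplexes, stood at 604 CPM in Ctrl and at 542, 541 and 478 in aPD-L1, Oxali and Combo. It was the lowest member in Combo at 0.791 (0.738 to 0.848). Atp5b and Atp5a1 encode the catalytic beta and alpha subunits of the ATP synthase. Atp5b was at 481, 432, 404 and 432 CPM and Atp5a1 at 343, 308, 289 and 313, with Oxali ratios of 0.840 (0.778 to 0.907) and 0.843 (0.770 to 0.924). The remaining 13 subunit genes of complex V were above 1 in Combo, from 1.06 for Atp5j2 to 1.37 for Atp5j. Ndufa6, an accessory subunit gene of complex I, was at 307, 287, 289 and 254 CPM, with a Combo ratio of 0.828 (0.751 to 0.912). Among the lowest in single-agent comparisons, Uqcrc1 (0.870) and Ndufs4 (0.874) in aPD-L1 and Ndufa10 (0.888) in Oxali had intervals that held 1. When the heat shock cluster was left out, Ndufa6 stood at 1.02 in aPD-L1, 1.04 in Oxali and 0.915 (0.805 to 1.04) in Combo. Cox7a2l then came to 0.821 (0.750 to 0.899) in Combo, above Atp5a1 (0.747) and Atp5b (0.766), and its single-agent intervals held 1. In the same setting Atp5b stood further below Ctrl, at 0.763 in aPD-L1 and 0.720 in Oxali. Atp5a1 stood at 0.742 in aPD-L1 and 0.693 (0.621 to 0.774) in Oxali. Atp5j2 turned to 0.952 (0.851 to 1.07) in Combo.

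The nuclear members with the most UMIs in each complex stood slightly higher in Combo than in Ctrl when all T-like cells were summed. Cox4i1, the ubiquitous form of complex IV subunit 4, was at 940, 944, 901 and 1033 CPM, a Combo ratio of 1.10 (1.04 to 1.16), which turned to 0.967 (0.906 to 1.03) without the heat shock cluster. Uqcrh, the hinge protein of complex III, was at 841, 875, 936 and 959 CPM, at 1.14 (1.08 to 1.20). Atp5h, subunit d of the ATP synthase, was at 738, 795, 770 and 862 CPM, at 1.17 (1.10 to 1.24). Ndufa13 of complex I was at 326, 356, 357 and 405 CPM, at 1.24 (1.14 to 1.35). None reached the 1.5-fold limit. Without the heat shock cluster Uqcrh, Atp5h and Ndufa13 were still highest in Combo, whereas Cox4i1 was highest in Ctrl, at 1075 CPM against 1039 in Combo.

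**Figure D3:**
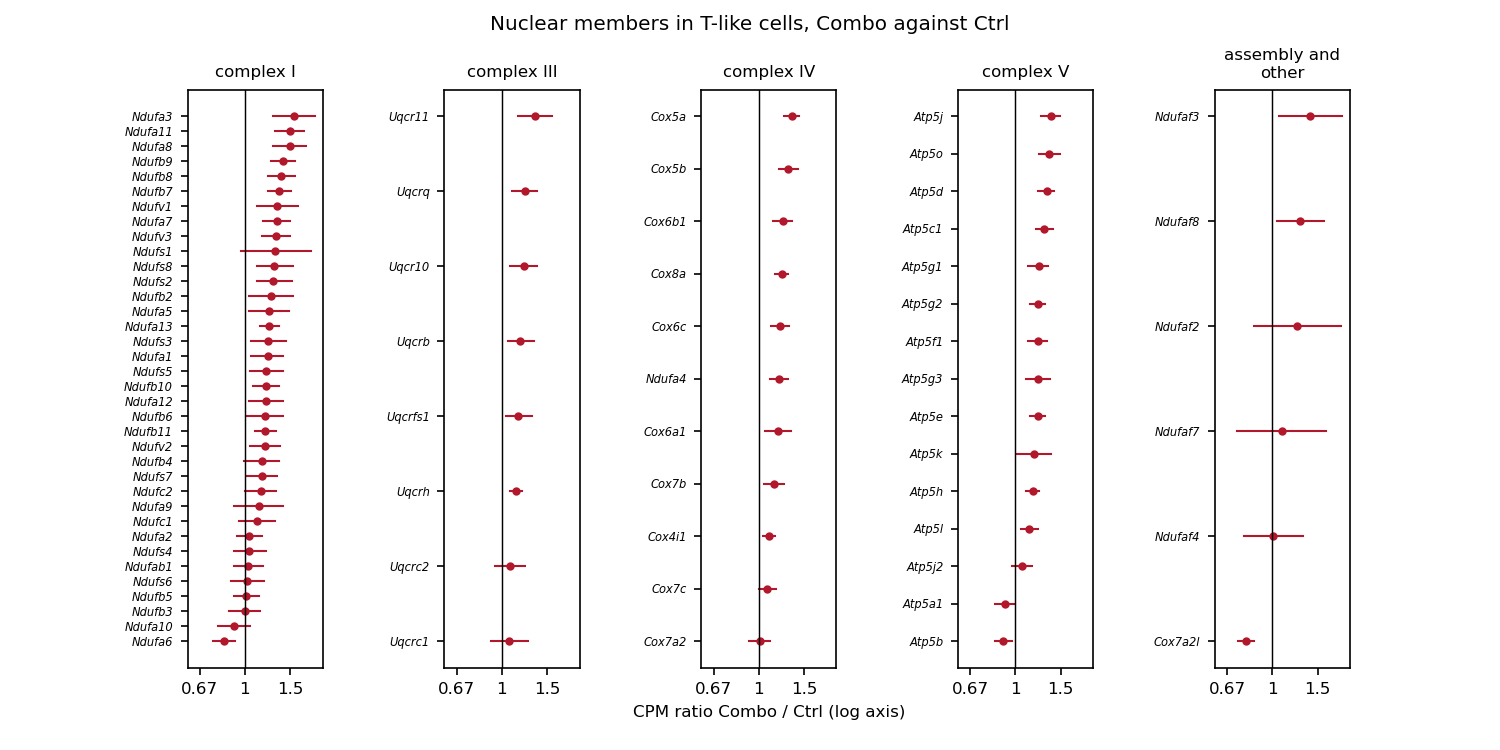
CPM ratio of Combo to Ctrl in T-like cells (log axis) of the 76 nuclear members with at least 100 UMIs in the pair, by complex, with 95% exact binomial intervals. In every complex most points lie right of 1, with Cox7a2l lowest at 0.791 and Ndufa3 highest at 1.55.

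Nuclear respiratory genes are known to share promoter sites for the factors NRF-1, YY1 and GABP (an ETS factor), so their promoters were searched. RefSeq promoters of 300 bases (GRCm38.p6, 250 before and 50 after the start site) were matched by symbol for 68 of 82 nuclear members. The NRF-1 letters GCGCATGC occurred on either strand in 11 of 68 (16.2%), against 3.05% of all 27025 genes with a promoter. The YY1 letters AAGATGGC occurred in 10 of 68 (14.7%), against 3.19%, but in 9 of the 10 only after the start site, and these letters contain ATGGC, which also occurs at start codons. The ETS letters CCGGAAGT occurred in 5 of 68 (7.35%), against 4.31%. Windows around the NRF-1 letters (capitals, either strand) are shown for the 3 subunit genes with the highest Combo ratios among those holding them, and for Ndufa6, where the ratio was below 1; all read 5′ to 3′ along the gene.
Ndufa11: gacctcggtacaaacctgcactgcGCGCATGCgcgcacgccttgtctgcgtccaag
Ndufa8: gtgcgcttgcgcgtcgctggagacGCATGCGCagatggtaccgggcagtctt
Uqcr11: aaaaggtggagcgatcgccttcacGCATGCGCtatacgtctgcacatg
Ndufa6: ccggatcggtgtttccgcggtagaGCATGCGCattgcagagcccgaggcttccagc
These lie at chr17:56717678-56717733 on the plus strand, and at chr2:36049319-36049370, chr10:80406802-80406849 and chr15:82354343-82354398 on the minus strand. The capitals begin 60, 8, 4 and 83 bases before the start site. The Combo ratios of the 4 genes were 1.49, 1.49, 1.35 and 0.828, so members with these letters stood at both ends of the range.

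Genes that work with the chain but are not members were read from 6 lists. In Combo relative to Ctrl, 1 of 4 genes of complex II (succinate dehydrogenase), 4 of 6 of cytochrome c and regulators, 6 of 16 tested assembly factors, 1 of 9 tested genes of mitochondrial DNA expression, 24 of 73 tested mitochondrial ribosomal proteins and 3 of 13 of the TCA cycle had intervals above 1, beside 26.8% of all genes. Among the tested genes, intervals below 1 were seen for 1 assembly factor, Ttc19 (0.745), and 1 TCA cycle gene, Ogdh (0.777), beside 9.34% of all genes. The assembly factor Cox16 was too shallow to be tested, at 19.5 CPM in Ctrl and 8.63 in Combo, a ratio of 0.443 (0.270 to 0.712). Median log2 ratios below are also over tested genes. The median log2 ratios of the 6 lists were -0.03, 0.28, 0.29, 0.15, 0.24 and 0.17, beside 0.15 for all genes. At 1.5-fold, 3 genes of the 6 lists were called higher and none lower, beside 6.67% and 4.11% of all genes. They were Ucp2, an uncoupling-family carrier, at 306, 355, 328 and 464 CPM with a ratio of 1.52 (1.39 to 1.65), and the mitochondrial ribosomal genes Mrpl10 (1.76) and Mrps21 (1.61). Tfam, which packages mitochondrial DNA and takes part in its transcription, was at 38.6, 44.3, 43.5 and 54.3 CPM. Its Combo ratio was 1.41 (1.10 to 1.80), the opposite direction to the mt- members in the same cells. Cytochrome c itself, Cycs, was at 149, 189, 168 and 188 CPM. Of complex II only Sdhb, its iron-sulfur subunit, had an interval above 1, at 98.8, 115, 109 and 143 CPM. The assembly factors Surf1 and Cox14 of complex IV stood at 1.44 (1.17 to 1.77) and 1.43 (1.22 to 1.69).

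Between T-like clusters the nuclear sum ranged from 15609 to 26794 CPM over all libraries, a wider span than the 18593 to 21761 CPM between libraries, and contrasts of states could be tested over the 4 libraries. UMIs were summed per library and state and fitted with edgeR's quasi-likelihood test with the library as a block, and calls were made at a Benjamini-Hochberg adjusted p below 0.05 over all genes. Totals were rescaled by edgeR's TMM factors, so its log2 fold changes need not equal ratios of the printed CPM. States were cut from the same cells, although without the member genes. With the library as a block, the p-values measure how differences between states or classes vary over these libraries. Each library is also a different treatment.

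Dividing cells, led by Mki67 and Top2a, had the highest nuclear sums, at 25396 CPM in Ctrl and at 26419, 28126 and 27250 in aPD-L1, Oxali and Combo. Against the other T-like states, 55 of 75 tested nuclear members rose and 4 fell, while 26.5% of all genes rose and 24.2% fell. Among genes that took no part in clustering, 25.6% rose and 23.8% fell. The median log2 fold change of the nuclear members was 0.43, beside -0.03 over all genes. The largest rise was in Cox5a, a subunit gene of complex IV, at 959, 1077, 1069 and 1108 CPM in dividing cells against 436, 502, 446 and 576 in other T-like cells. Its log2 fold change was 0.97 (SE 0.07, adjusted p = 4.29e-19 by edgeR), and the groups did not overlap. Atp5g3, which encodes subunit c of the ATP synthase, stood at 353, 393, 437 and 391 CPM against 188, 203, 189 and 222 (0.84, SE 0.09). Cox6a1 (0.83, SE 0.09) and Ndufc2 (0.82, SE 0.10) followed. The catalytic subunit gene Atp5b, among the lowest in treated libraries, rose in dividing cells, at 749, 654, 732 and 699 CPM against 433, 395, 365 and 355 (0.72, SE 0.08).

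The 4 nuclear members that fell in dividing cells were Cox7a2l (-0.65, SE 0.09), the complex I assembly factor Ndufaf4 (-0.57, SE 0.23), Ndufa6 (-0.50, SE 0.09) and Uqcrh (-0.28, SE 0.07). Cox7a2l stood at 453, 386, 335 and 345 CPM in dividing cells and 631, 568, 566 and 516 in other T-like cells. Of the 12 mt- members tested, 5 fell and 1 rose, but without the 10% ceiling 2 fell and 2 rose. mt-Nd2 fell from 2526, 1682, 1848 and 1367 CPM in other T-like cells to 2099, 1285, 1262 and 1076 (-0.42, SE 0.07), and mt-Co1 by 0.38 on the log2 scale. The member that rose was mt-Cytb (0.21, SE 0.06), at 3760, 3304, 3534 and 3414 CPM against 3366, 2706, 3072 and 2383. Without Ctrl, 3 mt- members fell. Dividing cells were deeper, with a median of 8361.5 UMIs per cell against 2809.0 over all T-like cells.

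Naive and memory cells had the lowest nuclear sums, at 14372, 15578, 15955 and 16196 CPM, and the highest mt- sum of the 8 T-like clusters in every library. They held 3.52 mt- UMIs per nuclear member UMI in Ctrl and 2.36, 2.53 and 2.14 in aPD-L1, Oxali and Combo. Cytotoxic cells, led by Gzma and Klrg1, held 2.05, 1.19, 1.43 and 1.06. In this contrast 11 of 12 mt- members rose in naive and memory cells, with a median log2 fold change of 0.88 beside 0.04 over all genes, and 9.71% of all genes rose. None fell by edgeR, at an unadjusted p below 0.05 or by DESeq2. In CPM over the libraries, without the TMM rescaling, the mt- sum was 40178 in naive and memory and 28577 in cytotoxic cells. The nuclear sum was 15609 against 22413 CPM. mt-Nd2 stood at 3390, 2253, 2365 and 2010 CPM in naive and memory cells and at 2374, 1215, 1628 and 912 in cytotoxic cells (log2 1.20, SE 0.10, adjusted p = 5.26e-17). mt-Atp6 stood at 11216, 7410, 8075 and 7252 CPM against 9436, 4428, 5883 and 5074 (0.93, SE 0.07), and mt-Atp8 was the member that did not pass (0.74, SE 0.42). Both genes were higher in naive and memory cells within each library, although the ranges over libraries overlapped. The cytotoxic sums rest on 15 cells in Ctrl and 31 to 77 in the others.

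Nuclear members were split in the same contrast: 12 of 75 were lower and 6 higher in naive and memory cells, while 9.35% of all genes were lower. Complex IV supplied 6 of the 12, namely Cox5a, Cox6b1, Cox5b, Cox8a, Cox6c and Ndufa4, which is now counted as its subunit. Cox5a stood at 327, 308, 321 and 341 CPM in naive and memory cells and 731, 745, 628 and 773 in cytotoxic cells (-0.74, SE 0.14, adjusted p = 1.33e-05). Cox7a2l ran against them, at 694, 719, 670 and 740 CPM against 670, 413, 488 and 496 (0.93, SE 0.14). Ndufa6 (0.55) and Uqcrh (0.33) were also higher in naive and memory cells by edgeR, opposite to the change of the 3 genes in dividing cells. In CPM over the libraries Uqcrh was instead lower, at 895 against 949 in cytotoxic cells, so its edgeR direction was not seen in the CPM. The count of members that rose came to 1 without aPD-L1, and the count that fell to 7 without aPD-L1, 7 without Oxali and 4 without Combo.

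**Figure D4:**
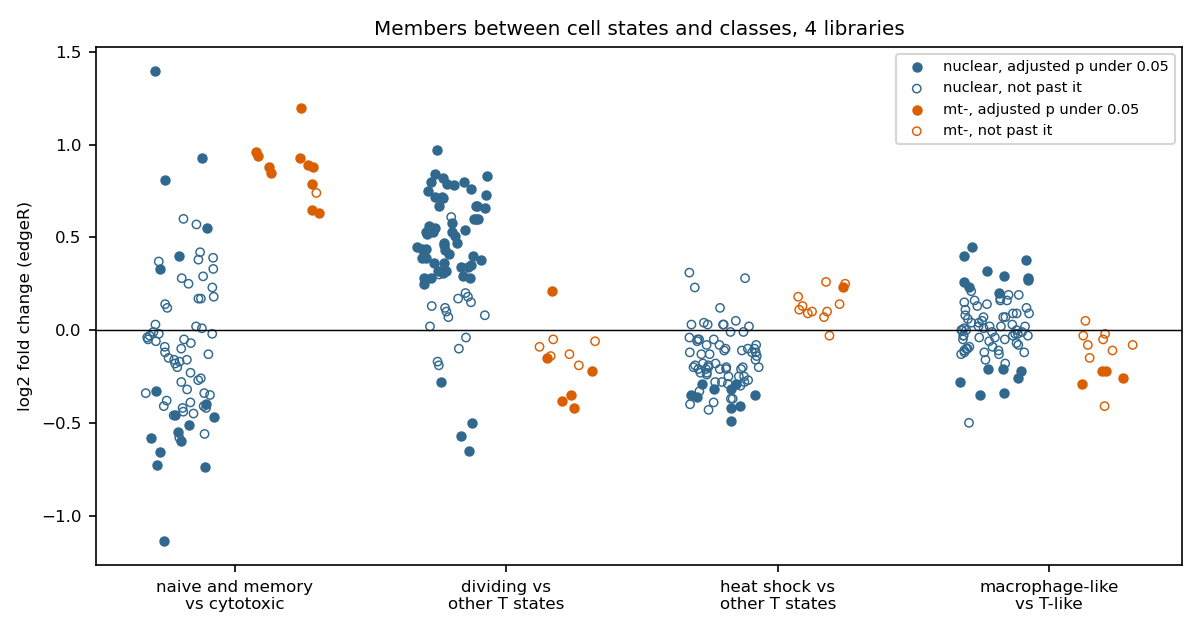
Log2 fold change of each tested member in 4 contrasts fitted with edgeR over the 4 libraries; filled points passed an adjusted p of 0.05. The mt- members lie above 0 in naive and memory cells (11 of 12 filled), and 55 of 75 nuclear members are filled above 0 in dividing cells.

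In the heat shock cluster, 10 of 75 nuclear members fell and 0 rose by edgeR, beside 1.87% of all genes that fell and 6.06% that rose. At an unadjusted p below 0.05, 28 fell and 1 rose, with no share over all genes given at that limit, and DESeq2 called 0 higher. Cox5a was again first, at 416, 393, 394 and 386 CPM against 638, 601, 523 and 713 in the other T-like cells (-0.49, SE 0.09). Atp5d, subunit delta of the ATP synthase, followed at 386, 404, 361 and 397 CPM against 525, 518, 479 and 601 (-0.42, SE 0.09). Of the mt- members, mt-Nd1 passed (0.23, SE 0.06), and 0 fell by edgeR, by an unadjusted p below 0.05 or by DESeq2. The count of 10 came to 5 without Ctrl, 5 without aPD-L1, 2 without Oxali and 3 without Combo, and mt-Nd1 did not pass without aPD-L1, Oxali or Combo. Without barcodes holding 3 or more macrophage UMIs, the count was 4. Macrophage markers summed to 534 to 826 CPM in this cluster, and their part in the result was not tested.

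Macrophage and monocyte-like cells had nuclear sums close to those of T-like cells, at 17944, 19795, 20452 and 21768 CPM. Their mt- sums were 36534, 29305, 29979 and 27436 CPM, against 41776, 30500, 34222 and 27255 in T-like cells. Against T-like cells, 10 of 80 tested nuclear members rose and 7 fell, below the 19.2% and 13.8% of all genes that did so. The rises were led by Ndufb8 of complex I (0.45, SE 0.08), at 201, 290, 270 and 332 CPM against 171, 199, 181 and 236, and by Uqcr11 (0.40), Uqcrb (0.38) and Uqcrq (0.32) of complex III. Uqcrh, of the same complex, fell, at 675, 711, 784 and 726 CPM against 841, 875, 936 and 959 (-0.34, SE 0.06). Cox7a2l fell by 0.35. Of 13 mt- members 4 fell (mt-Nd2, mt-Nd4l, mt-Atp6 and mt-Co3, by 0.22 to 0.29), and none rose by edgeR, an unadjusted p below 0.05 or DESeq2. Without Oxali, 5 nuclear members rose and 1 mt- member fell, and without aPD-L1 6 nuclear members rose. Both macrophage clusters also carried T markers, at 4330 CPM in cluster 0 and 7771 CPM in cluster 3 over the libraries, against 9508 in T-like cells, and their part in the contrast was not tested.

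Several subunits have tissue-restricted isoforms. Cox6a2 is the heart and skeletal muscle form of complex IV subunit 6a, and Cox6a1 the form found in most tissues. Of 1571 Cox6a2 UMIs (chr7:128205435-128206387, minus strand, GRCm38), 1553 were in the dendritic-like cluster, which was led by Ly6d, Klk1 and Siglech. There Cox6a2 stood at 614 CPM in Ctrl and at 1416, 1091 and 861 in aPD-L1, Oxali and Combo, and 199 of 222 cells (89.6%) held a UMI at a median of 6507.5 UMIs per cell. In T-like cells it was at 0.361, 0, 0.907 and 0 CPM, and 2 of 3549 cells (0.0564%) held a UMI at a median of 2809.0. In macrophage and monocyte-like cells it was at 3.02, 1.22, 2.77 and 0 CPM. The groups did not overlap. Cox6a1 was present beside it in the dendritic-like cells, at 224, 200, 199 and 252 CPM, close to its 195, 216, 209 and 232 CPM in T-like cells. No contrast was fitted for the dendritic-like cells.

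The other restricted forms were scarce. Cox7a1, the muscle form of subunit 7a, had 8 UMIs in T-like cells, against 3865 for Cox7a2. Cox4i2, an oxygen-regulated form of subunit 4, had 4 UMIs in T-like cells and stood at 6.40 CPM in macrophage cluster 0. Cox6b2, a testis form, stood at 3.11 CPM in T-like cells beside 395 for Cox6b1, Cox8b was at 0 beside 881 CPM for Cox8a, and Ndufa4l2, a hypoxia-induced relative of Ndufa4, had no UMI in T-like cells. Of the 3 genes that encode the same mature subunit c, Atp5g2 stood at 611, 720, 699 and 744 CPM, Atp5g1 at 296, 365, 337 and 363, and Atp5g3 at 213, 230, 215 and 260 in T-like cells.

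**Figure D5:**
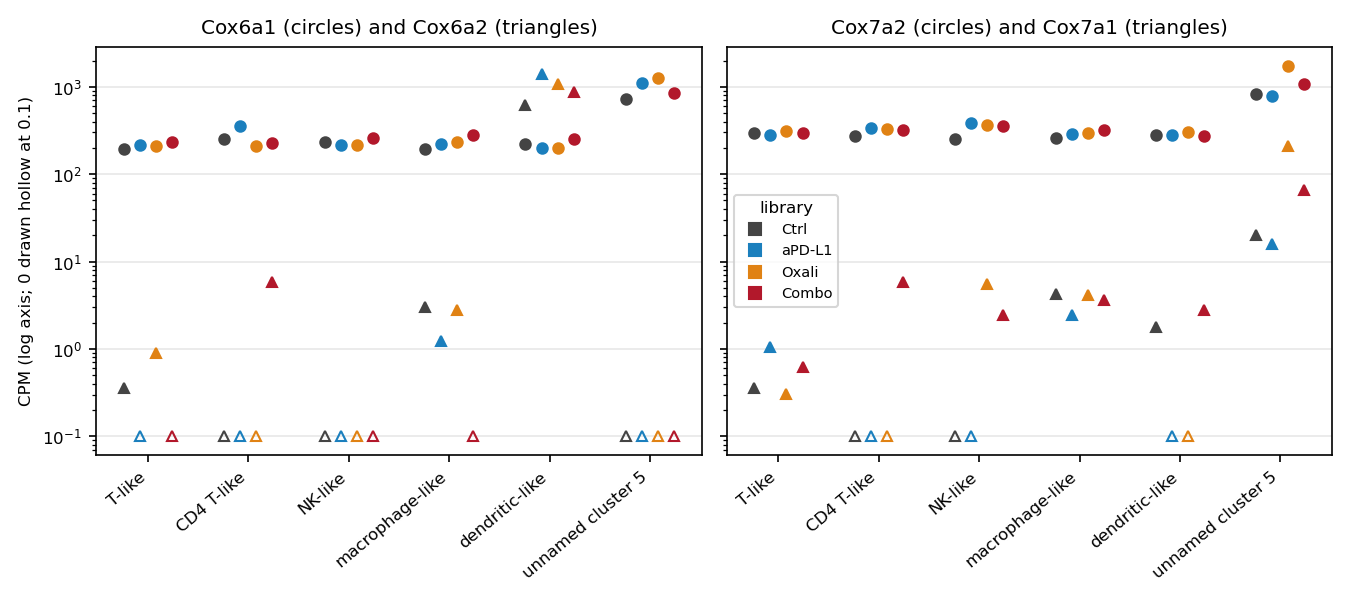
Levels in CPM (log axis) of Cox6a1 and Cox6a2 (left) and of Cox7a2 and Cox7a1 (right) in 6 cell sets and 4 libraries; hollow symbols mark 0 UMIs. Cox6a2 reaches 614 to 1416 CPM in dendritic-like cells and is far lower in the other 5 cell sets.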

How the data were processed

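Cells sorted for CD8 and CD3 had been profiled with the 10x Chromium 3′ kit (v3), and the submitters' processing notes name Cell Ranger 3.1.0 and mm10. The values in the matrices are counts of UMIs by gene and by barcode, deposited without normalization by the authors. The annotation release is not given in the sources used here. Members and gene lists were chosen with earlier results of these data known.

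Cells with at least 500 genes (5101) were clustered in scanpy 1.11.5 (Python 3.11.15) without member genes: 2000 variable genes, 30 principal components, 15 neighbors, Leiden resolution 1, giving 17 clusters. Clusters were named from 14 marker lists by the list other than T with the highest mean log2 fold, if over 1 and with at least 3 markers each in 10% of cells. Failing that, a cluster with 3 or more T markers each seen in 50% of its cells was called T-like. A cluster stayed unnamed where neither held, or where its top 10 genes held more markers of another list than of its own, as for cluster 11, which carried T markers, or where its cells were shallow and no marker was among those genes. T-like clusters were named as states by the same fold or kept a number. Cells with up to 10% mt- UMIs were then kept (4948). Scrublet marked 30 cells (0.588%), which were left out only as an alternative.

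Library comparisons used CPM ratios of summed UMIs with 95% exact binomial intervals, with counts under 3 set to 3, and a fold limit of 1.5. T-like sums held 2772646 to 3863813 UMIs, so 3 UMIs correspond to 0.776 to 1.08 CPM. Intervals cover counting error only. Class and state contrasts used edgeR 4.0.16 (R 4.3.3) with TMM scaling on sums of at least 10 cells. The library was a block, since both sides of a contrast come from the same library. DESeq2 1.42.0 was an alternative. The steps were tested on simulated data. Named genes were the members with most UMIs per complex, the 3 highest and 3 lowest nuclear and the extreme mt- members per comparison, isoform pairs, up to 4 genes per companion list with the largest ratio, and, added after values were seen, the leading members of each contrast. Gene positions come from GENCODE M21 (GRCm38), where 95 of 95 members matched.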

Additional observations from a re-analysis of the deposited data

Results flagged for a closer look

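The summed nuclear members differed in direction between T-like clusters in both single-agent comparisons, while the mt- members did not. In aPD-L1 relative to Ctrl, the nuclear sum was 1.08-fold (1.04 to 1.12) in the naive and memory cluster and 0.919-fold (0.883 to 0.957) in T cluster 7, which was led by Nsg2, Id3 and Samd3. In Oxali relative to Ctrl, it was 1.11-fold (1.08 to 1.14) in the dividing cluster and 0.946-fold (0.908 to 0.986) in T cluster 7. The Ctrl side of T cluster 7 was 43 cells and that of the dividing cluster 52. Each library is 1 sample, so the difference between clusters was not tested.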

How the results depend on the processing

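No paired analysis was possible for the library comparisons because each group is 1 library. Without the heat shock cluster, the nuclear sum turned below Ctrl in aPD-L1 (0.970) and Oxali (0.966) and came to 1.07 in Combo, nuclear members with intervals above 1 (counts added after seeing the data) numbered 3, 5 and 25, those below 1 numbered 9 in aPD-L1 and 7 in Oxali, 1 mt- member was called lower in aPD-L1, and 1 nuclear and 1 mt- member were called higher in Oxali. The shares over all genes without that cluster are not given. With a ceiling of 5%, the nuclear ratios were 1.03, 1.03 and 1.13 and the mt- ratios 0.816, 0.882 and 0.728 (aPD-L1, Oxali, Combo). Without a ceiling the mt- ratios were 0.740, 0.810 and 0.685, and 1 mt- member was called lower in aPD-L1. Without barcodes of 3 or more macrophage UMIs, the nuclear ratio was 1.04 in aPD-L1 and 1.04 in Oxali, and the mt- ratio 0.738 in aPD-L1 and 0.667 in Combo. With mt- and ribosomal protein UMIs left out of the total, the nuclear ratio was 1.08 in Oxali and 1.08 in Combo, and the mt- ratio 0.841 and 0.602. As a mean over cells the mt- ratios were 0.710, 0.798 and 0.628. In cells of 2000 to 4000 UMIs, chosen after seeing the data, the nuclear ratios were 1.03, 1.03 and 1.14, and the mt- ratio 0.836 in Oxali and 0.602 in Combo. With the fold limit lowered to 25% higher or 20% lower, nuclear members called higher were 3, 2 and 21 (7.85%, 6.13% and 20.2% of all genes), 1 nuclear member was lower in Combo, 1 mt- member was higher in Oxali, and 9, 5 and 10 mt- members were lower (7.83%, 9.69% and 7.38%).

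Without the library block, macrophage-like against T-like gave 4 nuclear members higher, 2 lower and 0 mt- lower, dividing gave 0 mt- higher and 3 lower, and heat shock gave 0 mt- higher. DESeq2 gave 4 nuclear members higher and 2 lower in macrophage-like cells, 8 mt- lower in dividing cells, and 16 nuclear lower and 2 mt- higher in the heat shock cluster. With no filter on low counts, nuclear members lower were 3 in naive and memory, 2 in dividing and 2 in heat shock cells, mt- members lower in dividing cells 2, and mt- higher in heat shock cells 0. Without a ceiling, dividing cells had 2 mt- members higher and 2 lower, and without barcodes of 3 or more macrophage UMIs heat shock cells had 4 nuclear members lower. Leaving out 1 library at a time, macrophage-like counts ranged from 5 to 9 nuclear higher, 5 to 8 nuclear lower and 1 to 5 mt- lower, naive and memory counts from 1 to 5 nuclear higher, 4 to 11 nuclear lower and 9 to 11 mt- higher, dividing counts from 50 to 55 nuclear higher, 3 to 4 nuclear lower, 1 to 1 mt- higher and 3 to 5 mt- lower, and heat shock counts from 0 to 1 nuclear higher, 2 to 5 nuclear lower and 0 to 1 mt- higher. Single members also changed direction without the heat shock cluster, a choice made after seeing the data. They included Cox4i1 in Combo (0.967) and Atp5o in Oxali (0.992), which turned below Ctrl. Others that turned below Ctrl included Cox5a (0.942), Atp5d (0.988) and Ndufa4 (0.956) in aPD-L1 and Ndufa12 (0.993) in Combo. Ndufa6 turned above Ctrl in aPD-L1 (1.02) and Oxali (1.04). This list is not complete. The cause of these moves was not tested. The nuclear sums of aPD-L1 and Oxali turned direction without the heat shock cluster. Over all alternative settings, 4 checks of sums were reversed.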

Other observations

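An unnamed cluster of 67 kept cells, led by Fgb, Wfdc12, Fabp4 and Krt7, carried the highest nuclear sums of any cluster. The nuclear members summed to 49367 CPM in Ctrl and to 54699, 89908 and 55066 in aPD-L1, Oxali and Combo, against 18593 to 21761 CPM in T-like cells. Its mt- sums were 64672, 38406, 76373 and 28019 CPM, and it held 0.509 to 1.31 mt- UMIs per nuclear member UMI. T markers summed to 8 to 180 CPM there. Over the libraries, Ndufa4 stood at 3057 CPM against 413 in T-like cells and Atp5g1 at 2977 against 343. The values rest on 9, 15, 26 and 17 cells, after the 10% ceiling had removed 24 of the cluster's 91 cells. They are sums weighted by deep cells: the 26 Oxali cells held 246028 UMIs at a median of 1817, and their median mt- share was 1.71%.

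Cox7a1 had 61 of its 110 UMIs in that cluster, and 52 of those were in 2 cells of Oxali.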
